A study of Chlorocebus aethiops with 8 samples.

Results

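The comparison set 4 arrays of COS cells that had received siRNA against RNA helicase A (RHA) beside 4 arrays of COS cells that had received scrambled control siRNA. Its members were all 8 arrays of the series, and each array was placed in its group by its siRNA label. Within each siRNA, 2 arrays held cytoplasmic RNA and 2 held RNA from polysomes, the messenger RNAs that carry several ribosomes. COS is a kidney line of the African green monkey (Chlorocebus aethiops) that makes the large T antigen of the SV40 virus, which binds p53. The RHA siRNAs matched 2 stretches of the human coding sequence, the first from nucleotide 2701 to 2721 and the second from 2784 to 2803, and the labels do not say whether each plate received both. Every culture, control or RHA, had siRNA at 0.5 nM, 4 h without serum, 24 h in medium with 10% serum and, 24 h after a split, a second transfection. The RNA was amplified from 25 ng and hybridised to an array of rhesus macaque probes, so that another species was measured than the one the probes were made for.

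The labels number the 2 arrays of each group 1 and 2, and the 4 arrays of a number are called set 1 and set 2 here. A control and an RHA array of the same fraction and the same set form a pair, which gives 4 pairs: cytoplasm set 1, cytoplasm set 2, polysomes set 1 and polysomes set 2. The effect of RHA siRNA on a probe set (a group of probes that reads one transcript) is the mean of its 4 log2 differences, RHA minus control. The labels do not say that the sets were separate cultures, nor whether both fractions of a set came from one lysate, so a p-value here speaks only of how far these arrays spread, which may be technical.

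RHA, the product of DHX9, is a DExH-box helicase that unwinds RNA and DNA. In the cytoplasm it binds structured 5′ leaders of some messenger RNAs, JUND among them, and aids their loading onto ribosomes. It is also known to load small RNAs into the RNA-induced silencing complex and, in the nucleus, to bridge the coactivator CBP and RNA polymerase II.

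As a check of the cells, the mesenchymal filament gene VIM had a mean intensity of 4808 in control and 5012 in RHA arrays, and the tubule water channel AQP1 had 1644 and 1124. The epithelial adhesion gene EPCAM had 355 and 324, and the leukocyte gene PTPRC had 8.71 and 9.30. Of 15 tubule markers 8 lay above the limit for testing, an intensity of 19.9, as did 8 of 9 mesenchymal markers. Tubule markers under it included CDH1, at 11.5 and 10.2, and LRP2, at 8.91 and 8.48. Of 9 leukocyte markers 5 lay above the limit, the highest of them CD68, a lysosomal protein, at 154 and 131. Median intensity ran from 19.3 to 20.8 over the 8 arrays. The sets stood far apart, with 13794 of 26383 tested probe sets (52.3%) differing between set 1 and set 2 in limma at an adjusted p under 0.05. The cytoplasmic control array of set 1 correlated least with its set, at a median r of 0.949 across probe sets against at least 0.967 for each other array. RNA quality, read from actin, EF1A and GAPDH as the log2 signal of their 3′ minus their 5′ control probe sets, moved with siRNA in opposite ways by fraction in set 1. RHA minus control was -1.09 in cytoplasm and 1.14 in polysomes of set 1, and -0.25 and -0.35 in those of set 2. Its part in the results that follow was not tested.

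The first question was whether DHX9 itself was lower in the arrays labelled RHA. Its tested probe set, MmunewRS.268.1.S1_s_at, had control intensities of 244 and 342 in cytoplasm (sets 1 and 2) and 359 and 477 in polysomes. The RHA arrays gave 130 and 254 in cytoplasm and 97.2 and 269 in polysomes. Each RHA array was below its own control, but the groups overlapped, since the highest RHA array lay above the lowest control array. The mean was 49.5% of control (log2 -1.01, SE 0.23, 95% interval -1.54 to -0.49). The drop was smallest in the cytoplasm of set 2 (log2 -0.43) and largest in the polysomes of set 1 (log2 -1.89). It missed the threshold over all probe sets (limma adjusted p = 0.145), and an exact test turning the sign of each pair gave a two-sided p of 0.13, the smallest that 4 pairs allow. The labels thus matched the direction of this DHX9 probe set in 4 of 4 pairs. Its suffix, _s_at, is that for probes shared by several transcripts, so signal from others cannot be set apart from it. A further 3 probe sets with the symbol lay under the limit for testing, one of them under another gene ID, and differed by -0.67 (lower in 3 of 4 pairs), -0.31 (3 of 4) and, for that last, 0.00 in size (2 of 4). A lower level in every cell and a strong loss in part of the cells cannot be told apart in such RNA.

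JUND, an AP-1 transcription factor whose leader RHA is known to bind, was read by a probe set with control intensities of 42.0 and 38.3 in cytoplasm and 75.5 and 52.8 in polysomes. In RHA arrays it had 28.1 and 44 in cytoplasm, and 31.2 and 41.2 in polysomes. It was lower in 3 of 4 pairs and higher in the cytoplasm of set 2, and the groups overlapped. The mean log2 difference was -0.50 (SE 0.23, 95% interval -1.03 to 0.03, limma adjusted p = 0.433), so no change was detectable with these arrays, and a 2-fold fall lay within the interval.

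Over both fractions, 15 of 26383 tested probe sets (0.0569%) differed between RHA and control siRNA at an adjusted p under 0.05 in limma with siRNA, fraction and set as terms. Of these, 11 were higher (0.0417% of those tested) and 4 lower (0.0152%). Their mean log2 differences were 1.33 to 2.15 in size with SEs of 0.16 to 0.25, and no single pair of any of them fell under 1.00 in size. All 15 had 1 sign in 4 of 4 pairs, where 9.81% of tested probe sets were higher and 8.99% lower in 4 of 4. In 12 of them the 4 RHA arrays did not overlap the 4 control arrays, as was so for 1.43% of tested probe sets on the high side and 1.38% on the low side. The 15 were called on these same arrays, so their shared signs and lack of overlap are largely built in. The called probe sets were somewhat brighter than most, with a median mean log2 intensity of 7.11 against 6.02 over all tested probe sets. A gene symbol was given for 9 of them, 7 higher and 2 lower.

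The calls rested on how the sets were modelled. Without the set term limma called 0 (731 at an unadjusted p under 0.05). With each of the 4 pairs as its own block it also called 0 (2749 at an unadjusted p under 0.05, smallest adjusted p 0.0721). Leaving out the cytoplasmic control array of set 1 gave 34 calls, leaving out the cytoplasmic RHA array of set 1 gave 2, and leaving out any of the other 6 gave 0. All 15 kept their sign in every one of these fits. With 4 of 4 pairs of 1 sign and none under 1.00 in size, this was all but fixed beforehand and gives no support.

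**Figure D1:**
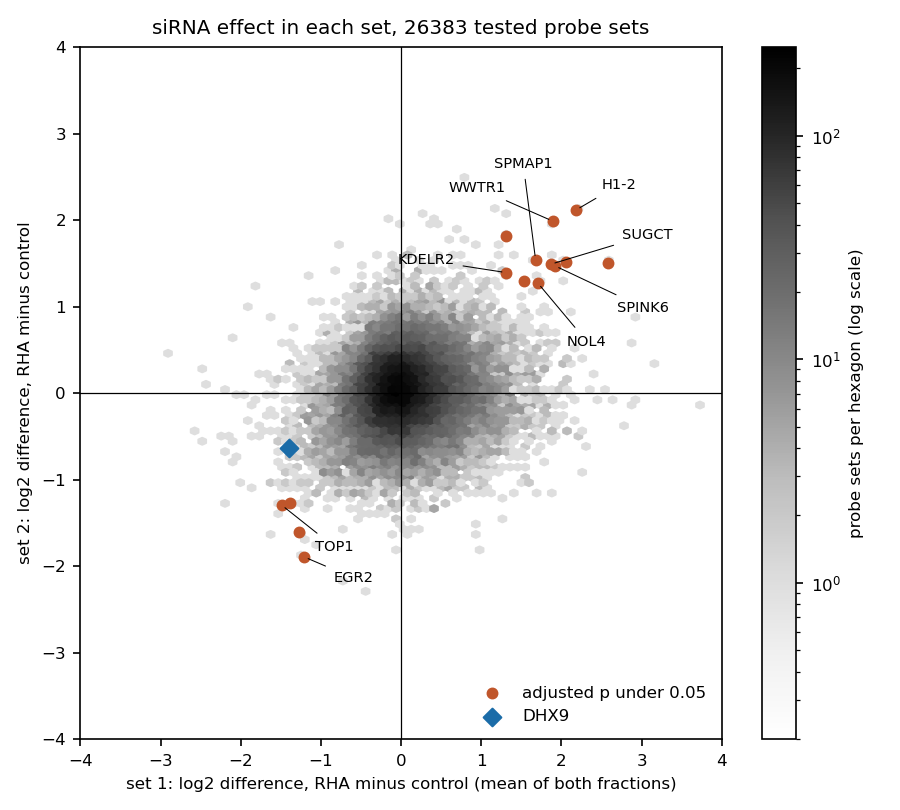
Hexagons count tested probe sets by their log2 difference, RHA minus control siRNA, as the mean of both fractions, in set 1 (horizontal axis) and in set 2 (vertical axis), with darker grey for more probe sets on a log scale. The 15 probe sets past the threshold (orange points, 9 of them with a gene symbol) lie at 1.00 or beyond in both sets, 11 at the upper right and 4 at the lower left, and DHX9 (blue diamond) lies at -1.40 in set 1 and -0.63 in set 2.

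Among the genes that rose, H1-2, a linker histone that sits on the DNA between nucleosomes, moved most. Control cytoplasm gave intensities of 259 and 187 (sets 1 and 2), and control polysomes gave 326 and 231. The RHA arrays read 1572 and 847 in cytoplasm, and 1111 and 963 in polysomes. Every RHA array was thus above every control array, in both fractions. H1-2 was 4.44-fold of control (log2 2.15, SE 0.19, limma adjusted p = 0.0115). Its probe set, MmugDNA.22836.1.S1_s_at, has the suffix for probes shared by several transcripts, so that signal from related histone genes cannot be set apart from it. The called probe sets of SUGCT and KDELR2, and those of DHX9 and JUND, have this suffix too. Another pair of H1-2 probe sets lay under the limit for testing and differed by 0.04 and 0.12.

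WWTR1 encodes TAZ, a transcriptional coactivator held back by the Hippo pathway. In probe set MmuSTS.4095.1.S1_at it had 48.9 and 96.9 in control cytoplasm and 59.7 and 87.7 in control polysomes. RHA siRNA gave 186 and 384 in cytoplasm, and 216 and 348 in polysomes. The groups did not overlap, and the pairs were close to each other, from log2 1.85 to 1.99. The mean was 3.84-fold of control (log2 1.94, SE 0.16, limma adjusted p = 0.0115). This rise was not shared by the brightest WWTR1 probe set on the array, with a mean log2 intensity of 11.54, which differed by -0.35 (SE 0.20, adjusted p = 0.55), while the remaining one differed by 0.43.

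SPINK6, an inhibitor of serine proteases, had control intensities of 152 and 197 in cytoplasm and 97.6 and 156 in polysomes. The RHA arrays lay close together, at 471 and 504 in cytoplasm and 451 and 467 in polysomes. Its RHA arrays spread less (SD 0.07 in log2, n = 4) than its control arrays (SD 0.42, n = 4), and the groups did not overlap. The mean difference was 3.24-fold (log2 1.69, SE 0.18, limma adjusted p = 0.0243).

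SUGCT, a mitochondrial enzyme that transfers CoA to glutarate, was dimmer, with controls of 34.4 and 21 in cytoplasm and 27.7 and 16.6 in polysomes. Under RHA siRNA it had 145 and 58.8 in cytoplasm and 87.9 and 46.9 in polysomes. It was 3.20-fold of control without overlap (log2 1.68, SE 0.17, limma adjusted p = 0.0229). SPMAP1, named as a microtubule-associated protein of sperm, differed most between the sets among the named genes that rose. Its controls read 209 and 187 in set 1 (cytoplasm, then polysomes) and 757 and 517 in set 2. The RHA arrays read 793 and 505 in set 1 and 2111 and 1570 in set 2. The groups overlapped across sets but not within either set, and the mean was 3.05-fold (log2 1.61, SE 0.16, limma adjusted p = 0.0229).

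KDELR2, a receptor that returns escaped proteins from the Golgi to the endoplasmic reticulum, had the smallest SE of the named genes that rose. Its controls read 54.5 and 75.7 in cytoplasm and 38.8 and 57.7 in polysomes. Under RHA siRNA it had 139 and 184 in cytoplasm and 93.8 and 164 in polysomes, all above the controls. The mean was 2.55-fold (log2 1.35, SE 0.16, limma adjusted p = 0.0355), and 2 further tested probe sets had 1.14 and 0.58. The first of these had a control mean (log2 4.16) under the limit for testing and was tested only through its RHA arrays, so its sign gives no support. All tested KDELR2 probe sets have the _s_at suffix, so signal from other transcripts cannot be set apart from them. NOL4, a nucleolar protein, had controls of 43.5 and 31.4 in cytoplasm and 64.4 and 25.6 in polysomes. With RHA siRNA it had 173 and 65.1 in cytoplasm and 173 and 71.6 in polysomes. The mean was 2.81-fold (log2 1.49, SE 0.19, limma adjusted p = 0.0477) without overlap, and a further NOL4 probe set had 0.82.

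Both named genes that fell act in the nucleus. EGR2, a zinc-finger transcription factor of the immediate-early class, had controls of 83.2 and 137 in cytoplasm and 110 and 193 in polysomes. In RHA arrays it had 35.9 and 37.7 in cytoplasm and 47.8 and 50.8 in polysomes, each below every control. The drop was 2.93-fold (log2 -1.55, SE 0.19, limma adjusted p = 0.0359), with log2 -1.86 and -1.93 in set 2 and -1.21 and -1.20 in set 1. The other EGR2 probe set differed by 0.36 (limma adjusted p = 0.43), the opposite sign. It was higher in 4 of 4 pairs, and its RHA arrays (39.1 to 45.7) lay above all its controls (29.3 to 38.7). The fall thus belongs to the called probe set.

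TOP1, the DNA topoisomerase that relaxes supercoils by cutting one strand, was among the brighter of the called genes. Its controls read 667 and 525 in cytoplasm and 580 and 666 in polysomes. The RHA arrays read 182 and 205 in cytoplasm and 270 and 282 in polysomes, and the groups did not overlap. TOP1 was 2.63-fold lower (log2 -1.39, SE 0.18, limma adjusted p = 0.0477). A further TOP1 probe set, dimmer, had -0.74, lower in 3 of 4 pairs.

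**Figure D2:**
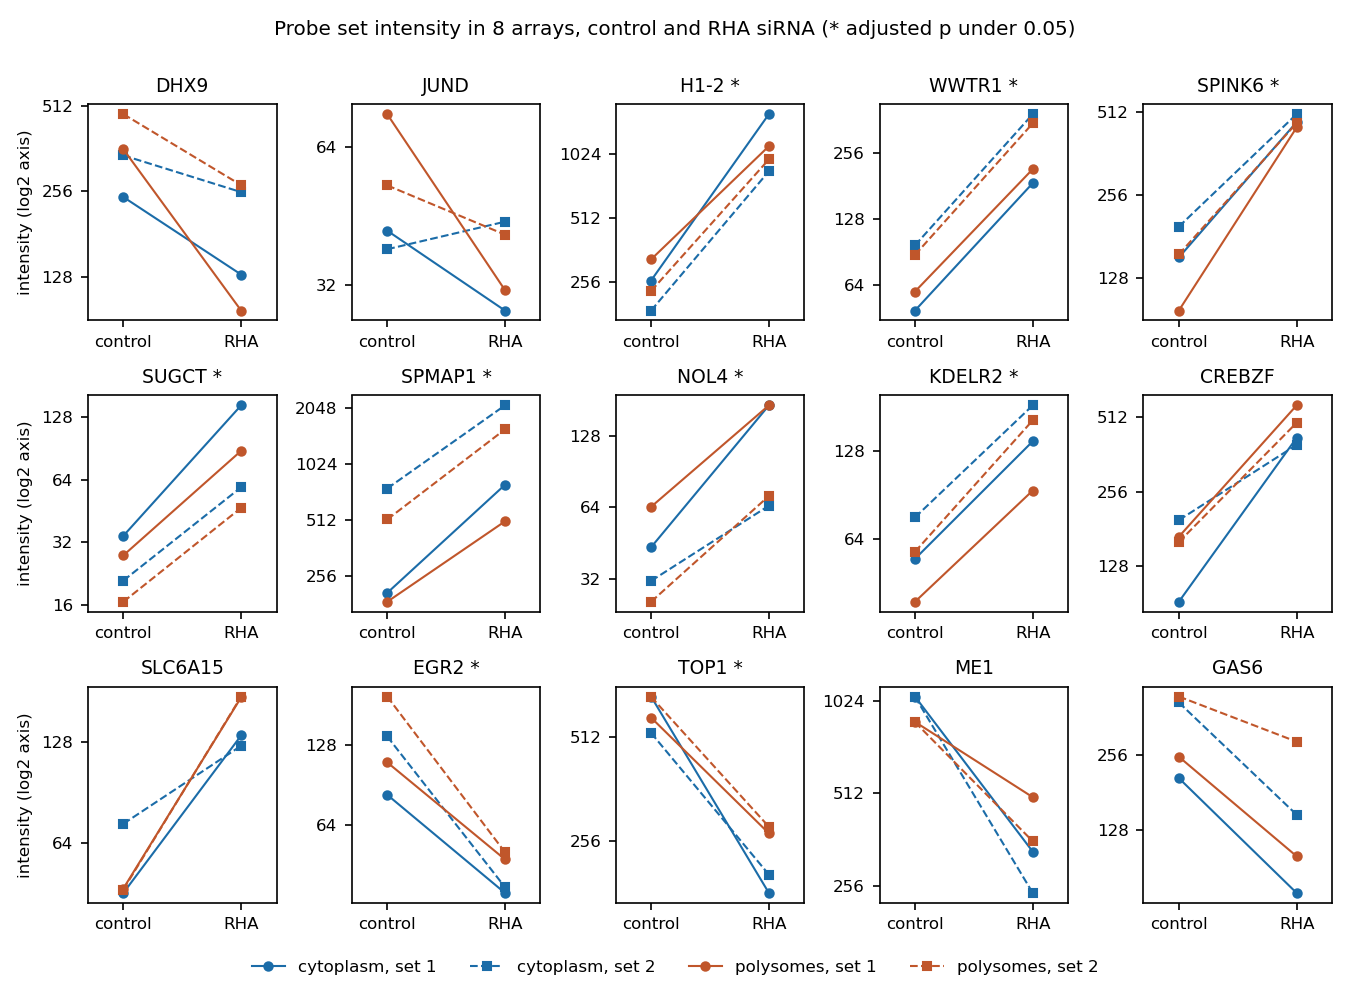
Intensity of 15 named genes on each of the 8 arrays (log2 axis, its range set per gene), with a line from the control to the RHA array of each pair, blue for cytoplasm, orange for polysomes, solid for set 1 and dashed for set 2. All 4 lines rise for H1-2, WWTR1 and SPINK6, and all 4 fall for EGR2, TOP1 and DHX9, while the JUND line of cytoplasm set 2 runs from 38.3 up to 44.

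The remaining 6 called probe sets carried no gene symbol in the annotation. Of these 4 were higher, at 2.67-fold to 4.12-fold of control, and 2 lower, by 2.51-fold and 2.72-fold.

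Below the threshold, the genes next in line were named when their 4 pairs agreed in sign and their mean difference was at least 1.5-fold. On the high side the 7 further genes had adjusted p-values in limma of 0.059 to 0.066. CREBZF, a bZIP factor, had controls of 92.2 and 197 in cytoplasm and 169 and 161 in polysomes. Its RHA arrays, at 423 and 397 in cytoplasm and 572 and 487 in polysomes, lay above all controls, and the difference was log2 1.64 (SE 0.23). SLC6A15, which carries neutral amino acids into cells, had log2 1.53 (SE 0.22), and COG1, part of a complex that tethers vesicles at the Golgi, had 1.42 (SE 0.20), with 2 of its 3 further probe sets below 0. LOC697178 had log2 1.40, MSRB3, a methionine sulfoxide reductase, 1.19, ACYP2, an acylphosphatase, 1.12 and the membrane protein TM7SF3 1.11.

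On the low side the 12 further genes had adjusted p-values of 0.066 to 0.098. ME1, the cytosolic malic enzyme that makes NADPH, had controls of 1057 and 1056 in cytoplasm and 874 and 873 in polysomes. Under RHA siRNA it read 331 and 243 in cytoplasm and 498 and 358 in polysomes. All RHA arrays lay below all controls, the mean log2 difference was -1.47 (SE 0.22), with -1.68 and -2.12 in cytoplasm and -0.81 and -1.29 in polysomes. GAS6, a ligand of the TAM receptor kinases, had controls of 207 and 414 in cytoplasm and 252 and 438 in polysomes. Its RHA arrays read 71.8 and 147 in cytoplasm and 101 and 289 in polysomes, which overlapped the controls of the other set. The GAS6 difference was log2 -1.23 (SE 0.19).

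Values of others on the low side, in log2, were -1.23 for UBE2W, a ubiquitin-conjugating enzyme, -1.15 for the F-box protein FBXO8, -1.03 for SNX18, a sorting nexin of endosomes, and -0.91 for ATG4C, a protease of autophagy. The oxidoreductase PYROXD1 had -1.26 and ISCA1, which helps to assemble iron-sulphur clusters, -0.96. SRPK2, a kinase of splicing factors, had -1.11, LRCH2 -1.25, TMEM150C -1.12 and FAM220A -1.33. Of the 14 leading genes on the low side, called or not, the groups did not overlap in 8, against 12 of 14 on the high side. Over all tested probe sets the shares were 1.38% on the low side and 1.43% on the high side. The leading genes were ranked by p on these same arrays, so the lack of overlap is largely built in.

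**Figure D3:**
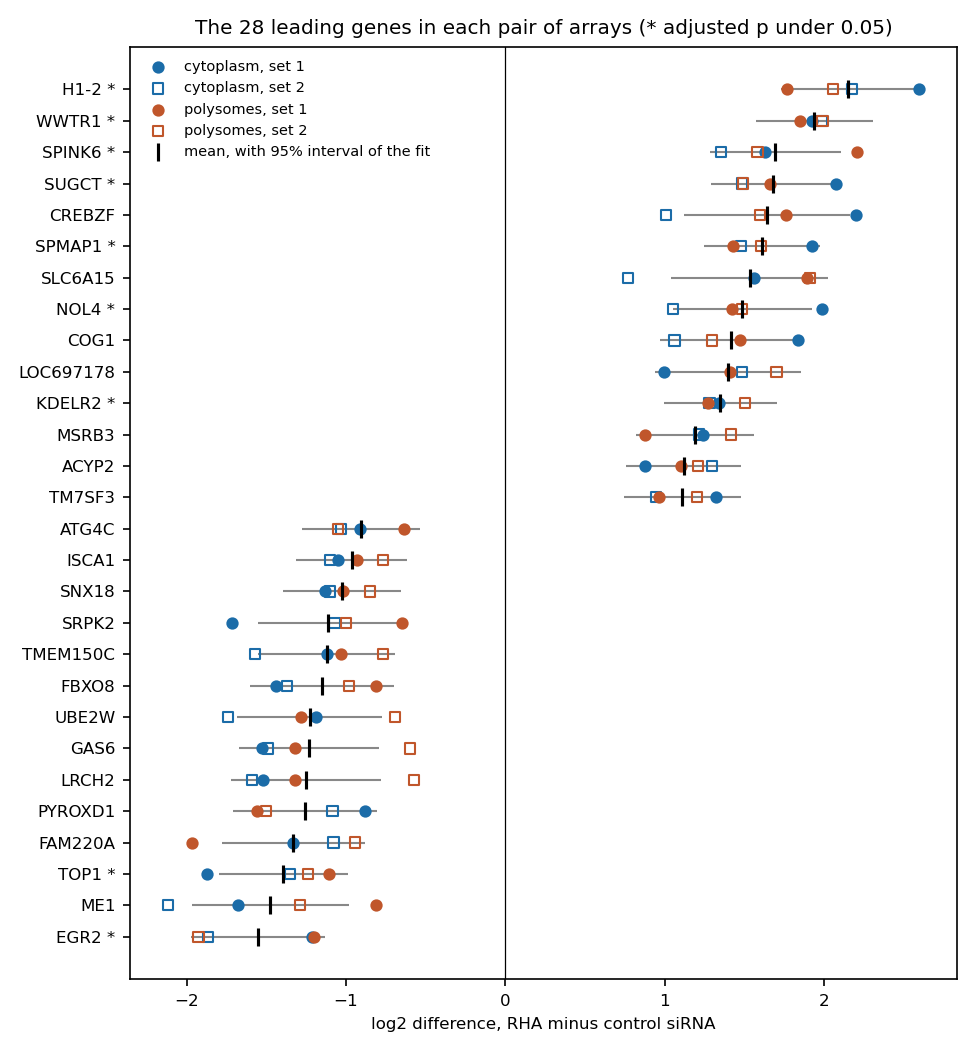
Log2 difference, RHA minus control siRNA, in each of the 4 pairs for the 14 leading genes per direction (blue for cytoplasm, orange for polysomes, filled for set 1, open for set 2), with the mean as a tick and its 95% interval from limma as a line. The genes were chosen for 1 sign in all 4 pairs, so only the spread along a line is informative, and it is narrow for WWTR1 (1.85 to 1.99) and wide for ME1 (-2.12 to -0.81).

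Many genes had more than 1 tested probe set, and these did not always move together. Of the 9 called genes, 5 had further tested probe sets, 7 in all, and 5 of those 7 had the sign of the called one, or 4 of 6 among those with both siRNA arms above the limit for testing. Over the 14 leading genes on the high side 12 of 16 further probe sets shared the sign (10 of 14 with both arms above the limit), and over the 14 on the low side 11 of 19 did. SNX18 had none of 2, UBE2W none of 2, GAS6 none of 1 and ISCA1 1 of 2. The brightest ISCA1 probe set differed by -0.04 and the other by 0.42, higher in 4 of 4 pairs. That at 0.42 and the named ISCA1 probe set have the _s_at suffix. COG1 had 1 of 3, at 1.26 against -0.18 and -0.11. MSRB3 had 4 of 5, one of them with a control mean under the limit, and ME1 had 3 of 4 at -0.42, -0.41 and -0.17, all smaller in size than the named -1.47. For these genes a value belongs to the probe set, not to every transcript of the gene.

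**Figure D4:**
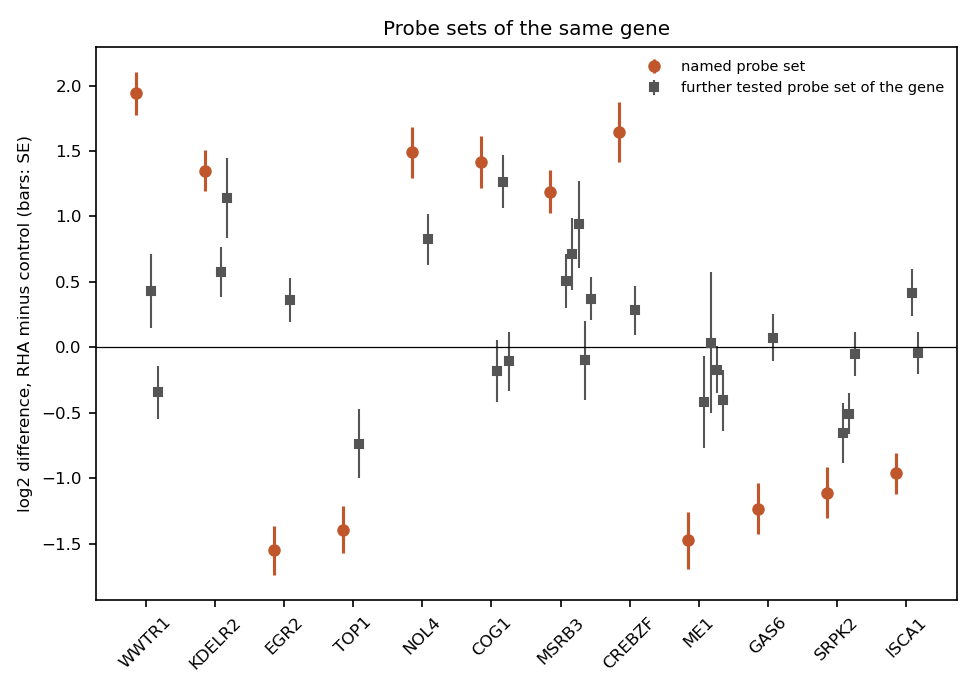
Log2 difference, RHA minus control siRNA, of the named probe set (orange) and the further tested probe sets (grey) of 12 genes, with bars of 1 SE from limma. The KDELR2 probe sets, all with the _s_at suffix, are above 0 (0.58 to 1.35, that at 1.14 with a control mean under the limit for testing). Both TOP1 probe sets are below 0, while WWTR1 runs from -0.35 to 1.94 and EGR2 has 1 probe set on each side of 0.

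Apart from the test, 128 probe sets (0.485%) had a mean 2-fold or more above control with 4 of 4 pairs above 0, and 77 (0.292%) had a mean 2-fold or more below control with 4 of 4 pairs below 0. They covered 75 genes with a single symbol on the high side and 34 on the low side. In 10 and 4 of the probe sets the lower siRNA arm had a mean under the limit for testing. Single pairs gave larger counts. In the cytoplasm of set 1 alone, 3169 probe sets were 2-fold higher and 796 lower, against 617 and 1181 in that of set 2. Polysomes had 488 higher and 857 lower in set 1, and 491 and 139 in set 2. Leaving out the cytoplasm pair of set 2 raised the count of higher probe sets to 369, and leaving out the polysome pair of set 1 raised it to 359 higher and 134 lower. Without the polysome pair of set 2, 161 were lower. In such counts only the remaining pairs had to agree in sign, a looser rule than 4 of 4, so they are not like for like with 128 and 77.

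Whether the siRNA effect differed between fractions or between sets was asked with interaction terms. Neither passed the threshold for any of 26383 probe sets. For siRNA by fraction limma called 0 (0%), with 1048 at an unadjusted p under 0.05 and a smallest adjusted p of 0.967. For siRNA by set it called 0 (0%), with 2724 at an unadjusted p under 0.05 and a smallest adjusted p of 0.204. With 2 arrays per group, that count of 0 does not show that the fractions or the sets responded alike. The differences of any 2 pairs correlated, across probe sets that share arrays and are no replicates, at -0.04 to 0.39. Between the sets, r was 0.01 for the cytoplasm pairs and 0.14 for the polysome pairs. The 0.39 was between cytoplasm and polysomes of set 2, and in set 1 that r was 0.12.

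Genes were then grouped by role. Each gene enters a list by its brightest tested probe set, which was possible for 10106 genes. Over these, 6 were called higher (0.0594%) and 2 lower (0.0198%), the median log2 difference was 0.03, 53.8% were above 0, and 10.4% were higher and 9.76% lower in 4 of 4 pairs. The 29 lists held 497 measured genes, of which H1-2, TOP1, KDELR2 and EGR2 were called. All values of lists below are log2 differences, RHA minus control. Where limma called 0 genes of a list, the number at an unadjusted p under 0.05 is given, all genes having 725 higher and 552 lower of that kind.

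Histone genes stood mostly above 0. Linker histones package DNA between nucleosomes. All 4 measured ones were above 0 (median 0.48), with H1-2 called. H1-4 had 0.79 (SE 0.22, limma adjusted p = 0.194), its control intensities were 23.0 to 31.7 and its RHA intensities 35.8 to 70.7, and H1-3 had 0.17. Core histones whose genes work during DNA replication were above 0 in 13 of 14 (median 0.41), and 6 were higher in 4 of 4 pairs, with 0 called (6 higher and 0 lower at an unadjusted p under 0.05). In 3 of the 14 one siRNA arm had a mean under the limit for testing, and among the other 11 all were above 0 (median 0.38) and 4 were higher in 4 of 4 pairs. The list's median was 0.47 in both cytoplasm pairs and 0.41 in both polysome pairs. H4C8 had 1.03 (SE 0.17, limma adjusted p = 0.0803), with control intensities of 25.9 to 32.8 and RHA intensities of 45 to 82.1. H2AC8 had 0.96 and H2AC13 0.94, but both had control means under the limit and were tested only through their RHA arrays. The 5 measured histone variants made outside replication had a median of 0.03, from -0.07 to 0.18, with 0 at an unadjusted p under 0.05. Messages of replication-dependent histones lack a poly(A) tail in normal form, and related copies share sequence, so a probe set may read more than 1 of them.

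Stress and growth-arrest genes were next. Of 17 measured p53 targets 12 were above 0 (median 0.25), 3 were higher and 2 lower in 4 of 4 pairs, and 0 were called (3 higher and 1 lower unadjusted). GADD45A, which answers DNA damage, had control intensities of 284 to 409 and RHA intensities of 740 to 767, without overlap (1.06, SE 0.17, limma adjusted p = 0.0794). RRM2B, the p53-driven subunit of ribonucleotide reductase, had 23.3 to 46.7 in control and 76.2 to 113 in RHA arrays (1.22, SE 0.21, limma adjusted p = 0.0929). Of further tested probe sets, 1 of 2 for GADD45A and 0 of 1 for RRM2B shared the sign. MDM2, the ubiquitin ligase of p53, had 0.84. The p53 list's median was 0.58 in the cytoplasm of set 1, and -0.07, -0.07 and 0.13 in cytoplasm of set 2 and polysomes of sets 1 and 2.

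The unfolded protein response, which adjusts folding capacity of the endoplasmic reticulum, had 15 of 20 genes above 0 (median 0.25), with KDELR2 called. In 1 of the 20 one siRNA arm had a mean under the limit for testing. Among the other 19, 14 were above 0 (median 0.26). XBP1, its transcription factor, had control intensities of 116 to 186 and RHA intensities of 198 to 370 (0.80, SE 0.24, limma adjusted p = 0.217). SDF2L1, a folding factor of that compartment, had 0.74. Medians of the list were 0.63 and 0.59 in the pairs of set 2, and 0.10 and -0.08 in those of set 1. Among targets of ATF4, the factor of the integrated stress response, 11 of 16 were above 0 (median 0.09), with 0 called (2 higher and 0 lower unadjusted). DDIT3, a stress-induced bZIP factor, had 281 to 391 in control and 541 to 885 in RHA arrays (1.06, SE 0.21, limma adjusted p = 0.104). CHAC1, which degrades glutathione, had 0.79 and ATF4 itself 0.43, both higher in 4 of 4 pairs. In that list 3 genes were higher and 2 lower in 4 of 4 pairs, the lower ones SLC7A1, a carrier of basic amino acids, at -0.35 and the stress factor ATF3 at -0.27.

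Lists below 0 were fewer. Of 11 NRF2 targets and NADPH-making enzymes 10 were below 0 (median -0.16), with 0 called (0 higher and 1 lower unadjusted). ME1 gave the largest size, and FTL, the ferritin light chain, had -0.37 and SLC7A11, the cystine carrier, -0.27. Only ME1 of this list was lower in 4 of 4 pairs. Immediate-early and AP-1 genes had 11 of 15 below 0 (median -0.14), with EGR2 called and 3 lower in 4 of 4 pairs. FOS, the partner of JUN proteins, had control intensities of 29.8 to 79.7 and RHA intensities of 20.9 to 55.6 (-0.64, SE 0.21, limma adjusted p = 0.269). The median of this list was -0.01 when the control array of cytoplasm set 2 was left out.

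Topoisomerases and transcription coactivators had 11 of 16 below 0 (median -0.08), with TOP1 called and 5 lower in 4 of 4 pairs. SUB1, a coactivator that binds single-stranded DNA, had control intensities of 309 to 443 and RHA intensities of 161 to 262 (-0.93, SE 0.22, limma adjusted p = 0.151). TOP2B, the topoisomerase that cuts both strands, had -0.43, and both were without overlap. RNA sensors and interferon-induced genes had 14 of 19 below 0 (median -0.09), with 0 called (1 higher and 2 lower unadjusted). In 1 of the 19 one siRNA arm had a mean under the limit for testing. Among the other 18, 5 were above 0 (median -0.08). OAS1, which senses double-stranded RNA, had 0.63, while IFIT3 had -0.59 and IFIH1, the sensor MDA5, -0.66.

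Lists of RNA helicases, of RNA partners of RHA, of small-RNA and messenger RNA processing, of growth regulators and of the Hippo pathway held no called gene. Unadjusted, 0 of the helicases, 1 of the RNA partners (lower), 2 of the silencing list (higher), 2 of the cap-binding list (higher), 3 of the growth regulators (higher) and 5 of the Hippo list (4 higher, 1 lower) had a p under 0.05. Of 32 other DExD/H-box helicases 24 were above 0 (median 0.18). The helicase median was 0.60 in the cytoplasm of set 1, the pair that holds the array that stood apart. It was -0.02 in the cytoplasm of set 2, and 0.00 in size and 0.08 in polysomes of sets 1 and 2. Medians of the RNA partners, the silencing list and the growth regulators were also highest in the cytoplasm of set 1, at 0.37, 0.47 and 0.43. In the cytoplasm of set 2 these were -0.06, 0.01 and 0.03. DDX42 had 0.40, DDX54 0.44 and DHX15 0.98, the last with 3.13 in the cytoplasm of set 1 and -0.28 in that of set 2. Among 17 RNA partners of RHA 10 were above 0 (median 0.13). IGF2BP3, which binds messenger RNA, had -1.01, from -2.78 in the polysomes of set 1 to 0.05 in those of set 2. In the silencing complex and microRNA processing 8 of 11 were above 0 (median 0.15), and the Argonaute proteins that hold small RNAs led, with 0.91 for AGO3 and 0.61 for AGO2, both higher in 4 of 4 pairs, and 0.37 for AGO4. AGO3 rested on dim values, with 18 to 52.1 in control and 45.5 to 101 in RHA arrays, and missed the threshold (limma adjusted p = 0.128).

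The cap-binding, export and 3′ processing list had 8 of 12 above 0 (median 0.16), led by the poly(A)-binding protein PABPN1 at 0.52. Growth regulators with structured leaders, the class of message in which RHA is known to act, had 8 of 13 above 0 (median 0.17). The cyclin CCND1 had 0.58 and the growth factor FGF2 0.59. In the Hippo list 12 of 19 were above 0 (median 0.11). TEAD1, the DNA-binding partner of TAZ, had 0.65, YAP1, a paralogue of TAZ, -0.54, and ANKRD1, a target gene, 1.02, which rested on set 1 (2.69 and 1.32) and was near 0 in set 2 (0.07 and 0.00 in size). WWTR1 counts in that list by its brightest probe set, at -0.35.

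The lists of translation and energy supply held 0 called genes. Unadjusted, the numbers were 2 higher and 5 lower for ribosomal proteins, 0 and 1 for translation factors, 3 and 2 for the respiratory chain and 0 and 1 for glycolysis. Cytosolic ribosomal proteins had 20 of 35 above 0 (median 0.03, or 0.00 in size after quantile normalization). RPS10 had -0.81 (SE 0.16, limma adjusted p = 0.108), RPL19 -0.54 and RPL5 -0.56, each lower in 4 of 4 pairs, as were 6 of the 35 in all. Of 30 translation factors 21 were above 0 (median 0.07), and EIF3I, a subunit of the factor that brings the small ribosomal subunit to messenger RNA, had -0.90 (SE 0.20, limma adjusted p = 0.137) without overlap. Nuclear-encoded parts of the respiratory chain had 38 of 51 above 0 (74.5%, median 0.13) and 9 of 51 higher in 4 of 4 pairs, while COX7A2, of cytochrome oxidase, had -0.90 (SE 0.16, limma adjusted p = 0.0978). Glycolytic enzymes were above 0 in 8 of 14 (median 0.06), and their medians in the 4 pairs ran from -0.70 in polysomes to 0.55 in cytoplasm, both of set 1.

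Lists of housekeeping complexes had their highest medians in the cytoplasm pair of set 1, which holds the array that stood apart. So did the lists of helicases, RNA partners of RHA, silencing and growth regulators above. Translation factors did as well, at 0.31 there, -0.05 in the cytoplasm of set 2, and -0.05 and 0.02 in polysomes of sets 1 and 2. Splicing factors and hnRNPs had 21 of 31 above 0 (median 0.22), cytosolic chaperones 15 of 17 (median 0.24) and proteasome subunits 14 of 21 (median 0.16), with 0 called. Unadjusted, 3 splicing genes were higher and 2 lower, 0 chaperones differed and 1 proteasome gene was lower. Their medians in that pair were 0.79, 0.82 and 0.67, and in the cytoplasm pair of set 2 they were 0.11, -0.02 and -0.03. SRSF10, a splicing regulator, was the exception in size, at 0.79 (SE 0.17, limma adjusted p = 0.121), with 0.47 to 0.95 in the pairs. STIP1, which links the chaperones HSP70 and HSP90, had 0.57 and the proteasome subunit PSMA7 -0.45.

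Cell-cycle lists and sterol synthesis differed little. Genes of G1/S and DNA replication had 8 of 23 above 0 (median -0.08), with -0.48 for RRM1, a subunit of ribonucleotide reductase. Genes of G2/M and mitosis had 11 of 16 above 0 (median 0.07), with 0.31 for the mitotic kinase AURKA, and cholesterol synthesis had 6 of 11 (median 0.04), with 0 called in each (1 higher and 2 lower unadjusted in G1/S, 0 in the others). Markers of kidney tubule, mesenchyme and leukocytes had 0 called (1 tubule marker higher and 1 lower unadjusted). Their summed intensities were 2328 to 3244 in control and 1926 to 2472 in RHA arrays for 15 tubule markers, 5653 to 8171 and 5686 to 7919 for 9 mesenchymal markers, and 283 to 496 and 302 to 417 for 9 leukocyte markers. Of these, 8, 8 and 5 were above the limit for testing. Under it on average were CDH1, PAX2, LRP2, CUBN, SLC34A1, UMOD and SLC12A1 of the tubule and COL1A2 of mesenchyme. PTPRC, MS4A1, ITGAM and LCP1 of leukocytes were under it too. The 5 leukocyte markers above it were CD68, LYZ, CORO1A, CD74 and CD14. Within the tubule list AQP1 had -0.55 and the transcription factor EMX2 0.51, each with 1 sign in 4 of 4 pairs.

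**Figure D5:**
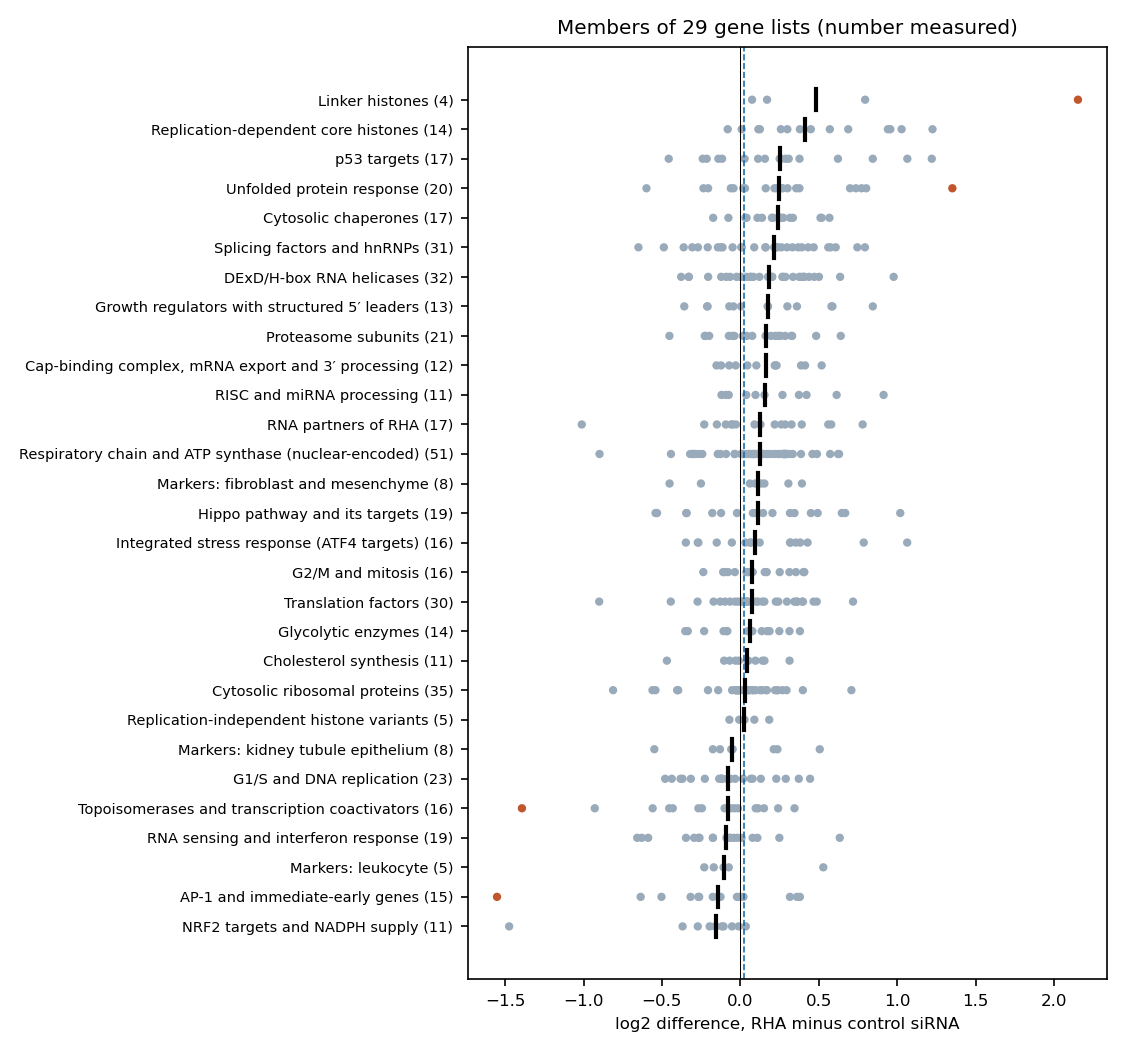
Log2 difference, RHA minus control siRNA, of each measured gene of the 29 lists (points, orange where called), with the list's median as a black bar and the median of all 10106 genes as a dashed line. The medians lie between -0.16 (NRF2 targets) and 0.48 (linker histones), and 4 genes are called, H1-2, KDELR2, EGR2 and TOP1.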

How the data were processed

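RNA of 8 samples was hybridised to 8 arrays. The table deposited by the authors gives 1 linear intensity per probe set and array, and array medians close to each other were taken to mean that it was already normalised. Per the submitters' processing notes GCOS and RMA were used, with no version or role given. Here log2 of the deposited intensity was taken. Of 52865 probe sets, 99 were array controls. The upper 50% of the other 52766 by mean log2 over all arrays were tested, 26383 in all (limit 4.32, an intensity of 19.9).

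The model was limma's (version 3.58.1, under R 4.3.3; lmFit, eBayes, two-sided, Benjamini-Hochberg over all tested probe sets, threshold 0.05), with siRNA, fraction and replicate number as terms. Titles of the samples give the replicate numbers but not what a number shares. Deviations from group means correlated at 0.68 to 0.87 between same-numbered arrays over the 6 pairs of groups. Genes come from GEO's platform annotation, in which 24969 probe sets had 1 symbol, 361 several and 27535 none.

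Named were up to 14 genes per direction with the smallest p, the same sign in 4 of 4 pairs, a difference of at least 1.5-fold and both arms above the limit. To these were added every called probe set, DHX9, JUND and up to 3 genes per list, by smallest p. The members and lists were chosen with earlier results of these data known. A list is described by counts and its median, with no test. Arrays give no read depth, and their number limits the precision. The fit was tested on simulated data. Errors there were independent between arrays, so errors shared by arrays of a pair or lysate were not tested. Alternatives changed the model terms, the filter, the scaling, the log offset, the variance model and the arrays kept.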

Additional observations from a re-analysis of the deposited data

Results flagged for a closer look

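SLC6A15 had a log2 intensity of 6.19 in the cytoplasmic control array of set 2, while the other 3 control arrays lay at 5.51 to 5.55. That array stood further out than a test for single outlying values allows, in 1 of 72 groups of 4 arrays examined, and chance alone flags about 5% of groups.

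In 4 of the 29 lists the median difference had 1 sign in both pairs of one group and the opposite sign in both pairs of the other, and these differences were not tested. Cytoplasm minus polysomes, the median siRNA effect differed by 0.25 for the respiratory chain and by 0.76 for glycolytic enzymes, which had 0.55 and 0.14 in the cytoplasm pairs and -0.70 and -0.13 in the polysome pairs. Set 1 minus set 2, it differed by 0.53 for genes of G2/M and mitosis and by -0.45 for leukocyte markers.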

How the results depend on the processing

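The 15 calls became 0 without the replicate block, 0 with the 4 pairs as blocks, 2 (H1-2 and WWTR1) with the block and a siRNA by fraction term, 28 with no filter on dim probe sets, 53 with arrays centred on their medians, and 566 with array weights, whose estimation did not converge. Averaging both fractions within a set, an alternative chosen after seeing the data, gave 0 (smallest adjusted p 0.440). Leaving out 1 array gave 0 to 34. Quantile normalization gave 12, of which 10 were higher and 2 lower. The 4 called genes of the lists became 0, 0, 1 and 22 without the block, with pairs as blocks, with the siRNA by fraction term and with array weights, 0 with fractions averaged, and 0 to 4 without 1 array. DHX9 passed the threshold with array weights (log2 -0.96, adjusted p = 0.0412) and was otherwise -1.19 to -0.77 without 1 array. With log2(value + 16), 61 probe sets were 2-fold higher and 46 lower. Leaving out a pair, so that only the remaining pairs had to agree in sign, gave 99 to 369 higher and 83 to 161 lower. Both interactions stayed at 0 calls under the alternatives run.

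Of the list members that are named by rank, H2AJ turned to -0.029 with array weights and CD68 to 0.053. Without 1 array H2AJ ran from -0.070 to 0.149, CD68 from -0.483 to 0.110 and CORO1A from -0.373 to 0.174. No named gene reversed in 677 refits, of which 459 kept their side of the threshold. All of them but JUND had 1 sign in 4 of 4 pairs, and the refits reuse the same 8 arrays. The lack of reversals was thus largely fixed by the choice of genes and gives no support. In list medians, 8 of 551 refits moved by more than the spread between pairs, 6 of them for core histones (0.32 to 0.47).

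With 2 arrays per group and 2 sets, the number of arrays limits what can be called, and dim probe sets near an intensity of 19.9 are read least well.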

Other observations

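In 11 genes, 2 probe sets each differed by at least 2-fold with the same sign in 4 of 4 pairs. They were picked after their values were seen and are given no test. In 5 of them (EIF5, ELOVL6, H2BC11, SAR1B and ST3GAL2) both probe sets are designs on 1 target sequence, so that their agreement is largely built in. The 9 higher ones were COG1, EIF5, ELOVL6, H2BC11, KDELR2, MPDU1, PTPRR, SAR1B and TFDP2, and the 2 lower ones CENPK and ST3GAL2. For KDELR2 both probe sets have the _s_at suffix, and one of them had a control mean under the limit for testing. COG1 had 2 further probe sets at -0.18 and -0.11. SAR1B, the GTPase that starts COPII vesicles at the endoplasmic reticulum, had log2 1.13 and 1.09. MPDU1, needed for sugar donors of glycosylation, had 1.12 and 1.10, and ELOVL6, which lengthens fatty acids, had 1.40 and 1.16. ST3GAL2, a sialyltransferase of the Golgi, had -1.47 and -1.45, with control intensities of 387 to 761 and RHA intensities of 102 to 440 in the first probe set.

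CENPK, a centromere protein, had -1.23 and -1.14. H2BC11, a replication-dependent core histone, had 1.22 and 1.32, with 2.08 and 1.98 in the pairs of set 2 against 0.44 and 0.40 in those of set 1 for the first probe set. In EIF5, a factor that checks start-codon choice, 2 probe sets had 1.18 and 1.23, while its brightest one had 0.34. The EIF5 and TFDP2 values were largest in the cytoplasm of set 1, the pair that holds the array that stood apart. They were 2.40 and 2.85 for EIF5 and 2.63 and 2.18 for TFDP2. Both probe sets of COG1, ELOVL6, MPDU1, SAR1B and ST3GAL2 were also largest in size in that pair. MPDU1 had 2.43 and 1.89 there against 0.36 and 0.42 in the cytoplasm of set 2, and ELOVL6 had 2.44 and 1.59 against 0.93 and 0.36.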
